A study of Mus musculus with 58 samples.

Results

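This report describes 4 of 58 chromatin-associated RNA (ChrRNA-seq) libraries: mouse cells at day 6 of neural differentiation in which the SPOC domain of SPEN was mutated, with PCGF3 and PCGF5 present or degraded. The libraries were taken by their titles, FKBP12-PCGF35_SPOC_F10 and FKBP12-PCGF35_SPOC_F6, each as ctrl_NPC_d6 and dTAG_NPC_d6, and treated and untreated cultures were compared within a clone. The series follows silencing of X-linked genes after induction of Xist in lines that lack one silencing pathway or several. RNA that stays with chromatin is mostly nascent, so the counts follow transcription more closely than counts of mature mRNA do.

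All 4 libraries came from female 129S x Cast hybrid embryonic stem cells (mESCs) in which Xist on the domesticus-type (Dom) X was placed under a promoter that doxycycline switches on (TetOn). Both PCGF3 and PCGF5 carried the FKBP12(F36V) degron in all 4, and the SPOC mutation of Spen was also present in all 4, so that the untreated group is itself a mutant. The untreated group (PCGF35_SPOC_ctrl_NPC_d6) and the treated group (PCGF35_SPOC_dTAG_NPC_d6) each hold 1 library of clone F10 and 1 of clone F6, both after 6 days of doxycycline in a neural differentiation protocol. In the treated group dTAG-13, the molecule that sends degron-tagged proteins to the proteasome, was added 12 hours before doxycycline and kept in the medium. The labels give its concentration as 100 uM. Each clone is a single isolate of the engineered line, so 2 clones measure how far isolates vary and not a population of independent animals.

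Xist coats the chromosome that makes it and recruits SPEN, whose SPOC domain binds co-repressors that switch transcription off. Xist also recruits Polycomb complexes. PCGF3 and PCGF5 define the form of Polycomb repressive complex 1 (PRC1) that Xist attracts first, and this form ubiquitylates histone H2A, after which PRC2 methylates histone H3.

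The 4 libraries held 10611852 to 16452372 fragments, of which 47.3% to 47.7% could be assigned to an allele, and libraries of a group differed far beyond counting error (chi-square per degree of freedom 83.3 and 130). Of the neural markers, only Nes and Vim were well above 0. Pax6 stayed between 1.05 and 3.20 CPM, a gene's fragments scaled to a common library total, Hes5 at or under 0.243 CPM and Fabp7 at or under 2.25 CPM. The 7 neural markers summed to 344 and 360 CPM in F10 (untreated, treated) and to 51.5 and 41.8 CPM in F6, nearly all of it from Nes and Vim. Sox1 was listed at 0 in all 4 libraries, but so was Sox2, which mESCs need, so a listed 0 shows nothing here. The clones differed in state. The 6 naive pluripotency markers summed to 442 and 393 CPM in F10 but to 1052 and 1075 CPM in F6, the fibroblast markers to 79.5 and 139 CPM against 6.41 and 8.65 CPM, and the mesoderm and endoderm markers to 61.9 and 45.6 CPM against 9.42 and 9.63 CPM. None of the 25 markers passed the test of treated against untreated libraries, 20 of them being high enough to test. Chromosome 16 also set the clones apart, with a Dom share of allelic fragments of 50.0% and 50.5% in F10 and 26.2% and 27.8% in F6. In uninduced mESCs the same labels gave 33.5% and 43.3% for F10 and 50.3% and 51.0% for F6, so the day 0 and day 6 libraries of a clone label do not share this mark, and an exchange of clone labels between them cannot be told apart from a change within a clone. The part of the marker differences in the results was not tested. Treated and untreated libraries of day 6 did share the chromosome 16 mark within each clone.

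The engineered genes were read first. Xist was at 7783 CPM in untreated F10, 10295 CPM in treated F10, 4488 CPM in untreated F6 and 5344 CPM in treated F6. It was higher with dTAG-13 in both clones, but clones differed more than treatments and the test was not passed (log2 fold change 0.32 ± 0.09 SE, adjusted p = 0.0852, edgeR quasi-likelihood test with Benjamini-Hochberg adjustment over all genes tested, as throughout, where an adjusted p under 0.05 passes). In each library 99.9% of its allelic fragments came from the Dom X. Spen RNA, in the same order, was at 268, 199, 657 and 630 CPM. Pcgf3 RNA was at 94.7, 92.8, 77.4 and 73.6 CPM, and Pcgf5 RNA at 80.4, 97.6, 30.5 and 32.6 CPM. None of these 3 passed the test (adjusted p = 0.173, 0.770 and 0.329). The degron acts on protein, so RNA levels do not check the loss of PCGF3 and PCGF5, and the point mutation of Spen is not visible in gene counts.

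Silencing was read as the allelic ratio, Dom/(Dom + Cast), of 246 X-linked genes, those of the deposited ratio table. A gene equally active on both X chromosomes has a ratio near 0.5, and silencing of the Dom X lowers it. The median ratio was 0.328 in untreated F10 and 0.579 in treated F10, and 0.402 in untreated F6 and 0.500 in treated F6. Both treated libraries lay above both untreated libraries. The group means were 0.365 ± 0.053 (SD, n = 2) and 0.539 ± 0.056 (SD, n = 2). The rise was 0.251 in F10 and 0.0979 in F6, or 0.174 ± 0.108 on average, which makes the spread between clones large against the rise. An exact two-sided permutation test over the 4 libraries gave p = 0.333, the smallest that 2 against 2 libraries allow. Pooling the fragments of all 246 genes gave 0.353 and 0.591 in F10 and 0.424 and 0.503 in F6, with 95% Wilson intervals no wider than 0.350 to 0.356 and 0.420 to 0.427 in the untreated libraries. These intervals cover counting error only.

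**Figure D1:**
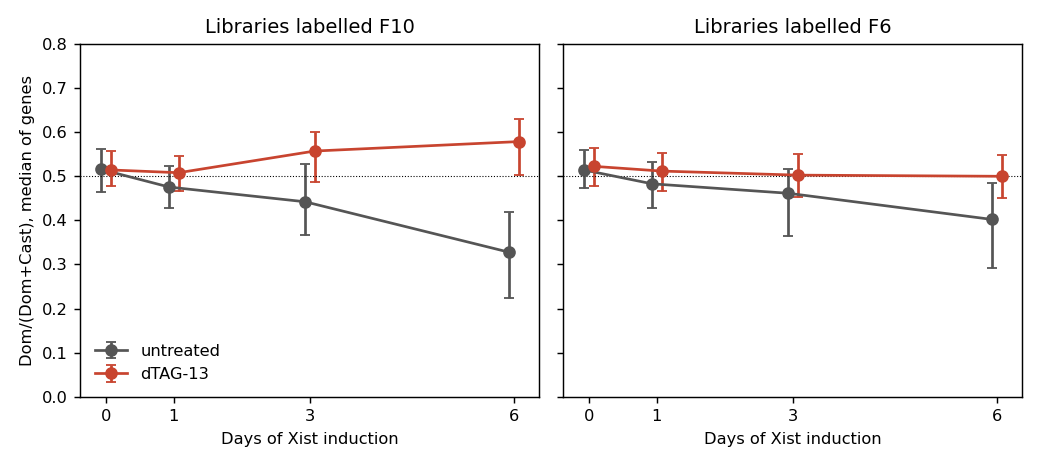
Median allelic ratio, Dom/(Dom+Cast), of 246 X-linked genes (vertical axis) against days of Xist induction (horizontal axis) for libraries labelled F10 (left) and F6 (right), untreated in grey and with dTAG-13 in red. Bars run from the lower to the upper quartile of the genes. On day 6 the treated medians were 0.579 and 0.500 and the untreated ones 0.328 and 0.402.

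Before Xist induction the median ratio ranged from 0.514 to 0.523 over the 4 mESC libraries of these labels. Day 0 was matched by clone label, which the chromosome 16 shares above put in doubt. The means over both clones do not depend on that match, while the values per clone and the gene counts against day 0 do. Untreated cells on day 6 were below day 0 by 0.150 on average, while treated cells differed from it by 0.0209, being 0.0643 above it in F10 and 0.0226 below it in F6. The direction of that small difference thus turned on the clone. On day 3 the treated libraries were above the untreated ones by 0.115 in F10 and by 0.0411 in F6. The distribution moved as a whole: 105 genes of untreated F10 and 66 of untreated F6 had a ratio under 0.3, against 10 and 11 in the treated libraries. A ratio under 0.1 was seen for 21 and 6 genes in the untreated libraries and for 0 in either treated library.

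Gene by gene, the ratio was higher with dTAG-13 for 243 of 246 genes in F10 and 217 of 246 in F6. It was higher in both clones for 215 genes and lower in both for 1, Mcts1, a translation factor gene with a mean of 9.5 allelic fragments. Of the autosomal genes tested, 26.0% were higher in both. Both treated libraries lay above both untreated libraries for 194 of the 246 genes, where 14.2% of the 11224 autosomal genes tested did so. With enough allelic fragments to test (a mean of at least 20 over the 16 libraries of the fit), 94 of 222 genes rose and 0 fell, while 0.134% of autosomal genes rose and 0.196% fell. Over all 11460 genes tested, the X included, these shares were 0.969% and 0.192%. All 94 were higher in both clones, with differences from 0.0639 to 0.443 and a median of 0.205. The 128 genes that did not pass had a median difference of 0.127, and 105 of them were higher in both clones. They were also less deeply covered, with a median of 123 allelic fragments against 346. In the day 3 libraries, which the day 6 comparison does not use but which entered the same fit, 77 of the 94 genes and 78 of the 128 were higher with dTAG-13 in both clones. Without clone F10 the count of genes that rose was 42, and without F6 it was 139.

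**Figure D2:**
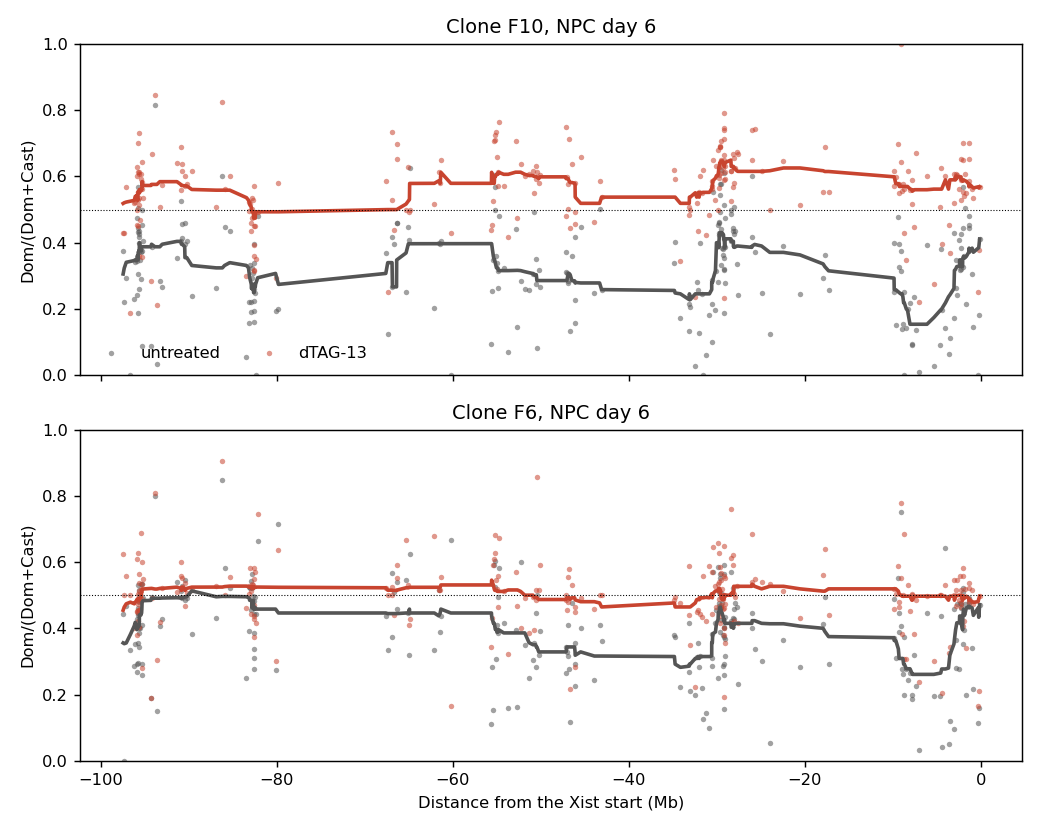
Allelic ratio of each of 246 X-linked genes (vertical axis) against distance from the Xist start in Mb (horizontal axis, negative towards the centromere) in clone F10 (top) and F6 (bottom). Points are genes, grey untreated and red with dTAG-13, and lines are running medians along the chromosome. The treated line lies above the untreated one along the stretch, by a wide margin in F10 and by little in F6 at both ends.

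Among the genes with the largest rises and at least 50 allelic fragments were Zc3h12b, Fhl1, Gria3, Phka1, Cd99l2, 2610018G03Rik, Elf4, Pls3, Prrg1 and Prkx. Zc3h12b, of a family of RNA-degrading zinc finger proteins (X:95711677-95927970 on mm10, plus strand), had ratios of 0.0917 and 0.515 in F10 (untreated, treated) and of 0.185 and 0.502 in F6. The untreated libraries were low and the treated ones close to the uninduced mean ratio of 0.544. The change in log2 odds of Dom against Cast was 2.62 ± 0.33 SE (adjusted p = 7.21e-08). Fhl1, a LIM domain protein gene of muscle, had 0.303 and 0.714 in F10 and 0.279 and 0.578 in F6. Its treated ratio in F10 exceeded the uninduced mean of 0.569, and the change was 2.19 ± 0.15 SE (adjusted p = 5.65e-19).

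Phka1, which encodes a regulatory subunit of phosphorylase kinase, lies 0.839 Mb from the Xist start and had 0.145 and 0.536 in F10 and 0.217 and 0.475 in F6 (adjusted p = 1.56e-15). Cd99l2, a cell surface protein gene, had 0.128 and 0.552 in F10 and 0.282 and 0.492 in F6 (adjusted p = 4.33e-08). Pls3, which encodes an actin-bundling protein, had 0.241 and 0.667 in F10 but 0.232 and 0.415 in F6 (adjusted p = 5.25e-06), so the clones differed more in the treated than in the untreated libraries. For Gria3, 2610018G03Rik, Elf4, Prrg1 and Prkx, which include the glutamate receptor gene Gria3 and the ETS factor gene Elf4, untreated ratios ranged from 0.146 to 0.371 and treated ratios from 0.466 to 0.743. Allelic fragments per library behind these genes and the 6 described next ran from 21 to 8611, and the widest 95% Wilson interval spanned 0.374. Without F10 the rises of Gria3, Elf4 and Prkx no longer passed the test, and without the clone as a block that of Pls3 did not.

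At the other end, among 105 genes with at least 200 allelic fragments, the 6 with the smallest differences were Zdhhc9, Dkc1, Klhl13, Rbm3, Usp9x and Pdzd4. Zdhhc9, a palmitoyltransferase gene, had 0.606 and 0.706 in F10 and 0.590 and 0.608 in F6, around its uninduced mean of 0.615. Dkc1, which encodes the pseudouridine synthase dyskerin, had 0.404 and 0.525 in F10 and 0.415 in both F6 libraries. Usp9x, a deubiquitinase gene, had 0.459 and 0.601 in F10 and 0.545 and 0.537 in F6. In these 3 and in Rbm3, the ratio moved by 0.101 to 0.143 in F10 and by no more than 0.0188 in F6. Klhl13, a ubiquitin ligase adaptor gene, differed from the rest. It was low in every library, at 0.193 and 0.293 in F10 and 0.274 and 0.301 in F6, below an uninduced mean of 0.352, and its small rise passed the test (adjusted p = 0.0168) but not without F10, without the block, with the 4 libraries alone, in limma or in DESeq2. The other 5 did not pass (adjusted p from 0.218 to 0.854).

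CpG-rich promoters are where PRC1 in general is known to bind. The paper places the H2A ubiquitylation lost from mESCs of the degron line between genes and along gene bodies, not at canonical PRC1 targets. The promoters of Zc3h12b (largest rise) and Zdhhc9 (smallest difference) are shown to compare their CpG dinucleotides within the coverage limits given above. Each runs from 250 bases before to 50 bases after the gene start in RefSeq (GRCm38.p6, the assembly of mm10), 5′ to 3′ on the gene's strand, with CpG in capitals. They are chrX:95711428-95711727 on the plus strand and chrX:48208653-48208952 on the minus strand.
Zc3h12b: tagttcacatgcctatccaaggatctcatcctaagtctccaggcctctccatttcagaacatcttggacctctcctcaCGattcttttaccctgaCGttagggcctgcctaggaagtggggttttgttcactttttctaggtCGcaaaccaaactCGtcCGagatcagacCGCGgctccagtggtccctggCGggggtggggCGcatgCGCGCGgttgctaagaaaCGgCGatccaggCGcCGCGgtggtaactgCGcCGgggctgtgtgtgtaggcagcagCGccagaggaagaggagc
Zdhhc9: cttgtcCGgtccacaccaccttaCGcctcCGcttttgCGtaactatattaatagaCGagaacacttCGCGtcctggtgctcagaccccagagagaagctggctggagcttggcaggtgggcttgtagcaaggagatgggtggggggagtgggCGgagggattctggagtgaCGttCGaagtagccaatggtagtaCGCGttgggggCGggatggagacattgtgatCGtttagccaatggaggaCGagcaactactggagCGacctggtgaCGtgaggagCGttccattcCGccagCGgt
Both hold 20 CpG, with an observed to expected ratio of 0.794 and 0.858. A window was found for 192 of the 246 genes, and a ratio of at least 0.6 was reached by 63.0% of these against 35.8% of all 32851 windows in the table. The median difference in allelic ratio was 0.142 for the 121 genes at or above 0.6 and 0.166 for the 71 below it, and 33% and 49.3% of the tested genes rose. In F10 the differences were 0.232 and 0.214, and in F6 0.0638 and 0.105, so the order of the classes turned on the clone.

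With dTAG-13, 11 genes stayed more than 0.1 below the day 0 library of the same label in both clones, against 110 genes in untreated cells. No test against day 0 was made per gene, and the genes other than Eda had means of only 18 to 102 allelic fragments. The best covered was Eda, the ectodysplasin gene 3.51 Mb from Xist (X:99975605-100400760), with a mean of 1513 allelic fragments. Its ratio was 0.113 and 0.368 in F10 and 0.121 and 0.344 in F6, beside 0.468 and 0.494 in dTAG-13-treated cells on day 0. It thus rose (2.03 ± 0.10 SE in log2 odds, adjusted p = 8.02e-27) without reaching the ratio seen before induction. Heph, which encodes a copper-dependent ferroxidase, had 0.0104 and 0.220 in F10 and 0.0312 and 0.239 in F6, beside 0.417 in both day 0 libraries. Only 1 Dom fragment was counted for Heph in each untreated library. In the opposite direction, 4 genes were more than 0.1 above day 0 in both clones, namely Pim2, Slc35a2, Porcn and Itgb1bp2. They had means of 20.8 to 122 allelic fragments.

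A higher ratio can come from more Dom RNA or from less Cast RNA, so the alleles were also measured apart, each as CPM of the whole library. Dom RNA of the 246 genes summed to 2201 CPM in untreated F10 and 3817 CPM in treated F10, and to 3653 and 5039 CPM in F6. Cast RNA summed to 4037 and 2646 CPM in F10, and to 4972 and 4977 CPM in F6. Dom RNA was therefore higher with dTAG-13 in both clones, by 73.5% in F10 and 37.9% in F6. Cast RNA fell by 34.4% in F10 and changed by 0.0972% in F6. In F10 the ratio moved from both sides, and in F6 from the Dom side alone. The rise of the ratio in F10 is therefore not a measure of Dom RNA by itself. For a clone of this combined mutant, the paper interprets an upward skew of ratios as selection for cells without the Cast X. Such loss was not tested in these libraries. Whether the clones differ could not be tested with 1 pair each.

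**Figure D3:**
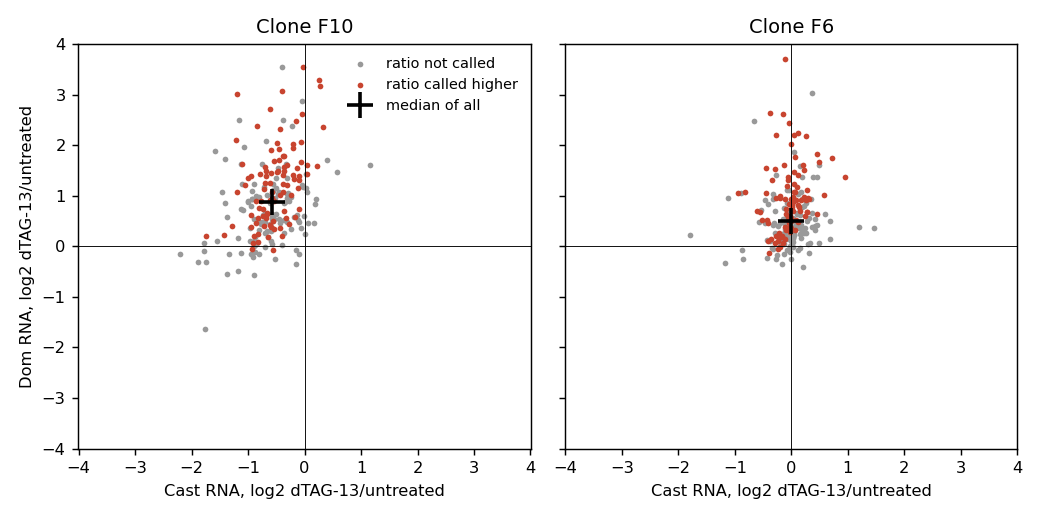
Change of Dom RNA (vertical axis) against change of Cast RNA (horizontal axis), both as log2 of dTAG-13 over untreated CPM, for 222 X-linked genes in clone F10 (left) and F6 (right). Red points are genes whose ratio rose in the test and the cross is the median of all. The cross lies at 0.88 for Dom and -0.58 for Cast in F10, and at 0.50 and -0.01 in F6.

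With the clone as a block, Dom RNA rose for 70 of the 222 genes and fell for 0, where 0.864% of autosomal genes rose and 0.820% fell. Cast RNA fell for 9 genes and rose for 0, where 0.739% of autosomal genes fell and 0.722% rose. Medians over the genes were 0.69 for Dom RNA and -0.28 for Cast RNA on the log2 scale, beside 0.01 and 0.00 for autosomal genes. Of the 94 genes with a higher ratio, 60 also passed as higher in Dom RNA. Without F10 the counts were 40 for Dom and 0 for Cast, and without F6 they were 96 for Dom and 86 for Cast. Phka1 is an example, with Dom RNA at 2.98 and 15.0 CPM in F10 and 8.20 and 28.1 CPM in F6 (log2 fold change 2.00 ± 0.16 SE, adjusted p = 1.11e-07). Its Cast RNA was at 17.5 and 13 CPM in F10 and at 29.6 and 31.1 CPM in F6 (adjusted p = 0.569). The 9 genes lower in Cast RNA were Pdzd4, Ddx3x, Araf, Hcfc1, Rpl10, Tbl1x, Slc7a3, Mtap7d3 and 1810030O07Rik. Ddx3x, an RNA helicase gene, had 39.9 and 18.3 CPM of Cast RNA in F10 and 45 and 37.8 CPM in F6.

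Both alleles were below uninduced mESCs in each library, by differing amounts. Dom RNA of untreated and treated F10 was 43.6% and 74.2% of the day 0 sum and Cast RNA 85.1% and 54.8%. In F6 these were 64.2% and 84.6% for Dom and 94.0% and 90.6% for Cast. Fragments of X-linked genes other than Xist made up 3.11% and 3.13% of the F10 libraries and 4.28% and 4.87% of the F6 libraries on day 6, and 5.00% to 5.65% on day 0. In libraries made from many cells, fewer cells that transcribe a gene and less transcription per cell cannot be told apart.

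Position, expression level and the dependence on SPOC alone were then compared among the 246 genes, using classes from other libraries or from the annotation. All 246 lie before Xist. Beyond it 0.911% to 1.15% of allelic fragments were assigned to Dom, so ratios there carry no information. By distance from the Xist start, the median difference was 0.182 within 20 Mb (55 genes), 0.165 from 20 to 40 Mb (65 genes), 0.211 from 40 to 60 Mb (40 genes), 0.146 from 60 to 80 Mb (17 genes) and 0.123 beyond 80 Mb (69 genes). The share of tested genes that rose was 57.1%, 41.4%, 59.0%, 41.7% and 21.9% in the same order, with 42.3% over all. Differences were thus smallest in the most distant class, with untreated medians of 0.341 in F10 and 0.447 in F6 beside 0.328 and 0.402 over all genes. By uninduced expression per kb of gene, the median difference was 0.209 in the lowest class, 0.169 in the middle and 0.122 in the highest (82 genes each). The shares of tested genes that rose, 40.6%, 52.8% and 34.6%, did not follow this order. The lowest class was less deeply covered, with a median of 68.9 allelic fragments against 222 and 236. Its untreated medians were 0.269 in F10 and 0.333 in F6, against 0.398 and 0.447 in the highest class. The lowest class thus had more room to rise.

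In the line with the SPOC mutation alone, 95 genes kept more than 0.75 of their uninduced ratio on NPC day 6 and 151 kept at most that. These classes come from libraries of another line, which carries no degron. The untreated group here has the same SPOC mutation. A lower untreated ratio in the 151 genes therefore follows largely from how the classes were set. The 151 genes silenced further without SPOC had median ratios of 0.262 and 0.560 in F10 and of 0.333 and 0.480 in F6 (untreated, treated). The 95 genes had 0.424 and 0.607 in F10 and 0.484 and 0.527 in F6. Median differences were 0.203 and 0.121, and 55% and 24.2% of the tested genes rose. In untreated cells the median gene kept 0.607 of its uninduced ratio in the first class and 0.845 in the second. In treated F10 both classes were above their uninduced medians of 0.515 and 0.526. In treated F6 the first class, at 0.480, was below its uninduced median and the second was level with it. The classes were thus apart in untreated cells and close in treated cells, and no test was made across genes. The larger rise in the first class is no separate result, since its lower untreated ratios left more room to rise.

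The same comparison was also read in PCGF35, the degron line with intact SPOC. Its median ratio on NPC day 6 was 0.0649 and 0.0833 in untreated and 0.225 and 0.228 in treated cells (replicates 1 and 2), differences of 0.160 and 0.145. The rise in the SPOC mutant was on both sides of these, at 0.251 in F10 and 0.0979 in F6. Treated PCGF35 cells, unlike treated PCGF35_SPOC cells, remained far below 0.5. Tested as an interaction on the log2 odds, 23 of 222 genes (10.4%) had a smaller effect in PCGF35_SPOC than in PCGF35 and 0 a larger one, where 0.267% of autosomal genes had a smaller and 0.303% a larger one. Dkc1, described above, is an example. In PCGF35 it had 0.115 and 0.286 in replicate 1 and 0.0988 and 0.326 in replicate 2, where both treated libraries were well above the untreated ones (interaction -1.54 ± 0.24 SE, adjusted p = 2.46e-05). Odds weigh a change from a low ratio more than the same change near 0.5, and untreated ratios differed between the lines throughout. Some of the 23 genes had little room to rise, such as Rbm3, at 0.455 and 0.534 in untreated F10 and F6 (uninduced mean 0.526). Others, such as Fgf13, started low (0.248 and 0.245, uninduced mean 0.527). For Fgf13 the effect was smaller on the odds scale only. Its ratio itself rose by 0.213 on average in PCGF35_SPOC and by 0.128 in PCGF35, where the untreated mean was 0.0217. A dependence on SPOC and the higher starting ratios of PCGF35_SPOC cannot be told apart here. Over the 23 genes the median difference in ratio itself was 0.0993 in PCGF35_SPOC and 0.195 in PCGF35. Leaving out F10 gave 70 such genes, leaving out F6 gave 14, and without the block there were 0.

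Total RNA of the X, over both alleles, was compared with that of the autosomes. The median log2 change of 555 X-linked genes other than Xist was 0.04 in F10 and 0.27 in F6, and that of autosomal genes was -0.01 in both. X-linked genes were thus higher by 0.05 in F10 and by 0.28 in F6 relative to autosomes. In F10 299 of the 555 genes were above the autosomal median, and in F6 457 were. The shift in F6 was seen on both sides of Xist, with medians of 0.25 before and 0.29 beyond it, although only the first side has informative alleles. F10, the clone with the larger change in allelic ratio, had the smaller change in X-linked RNA, and its Cast RNA had fallen.

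**Figure D4:**
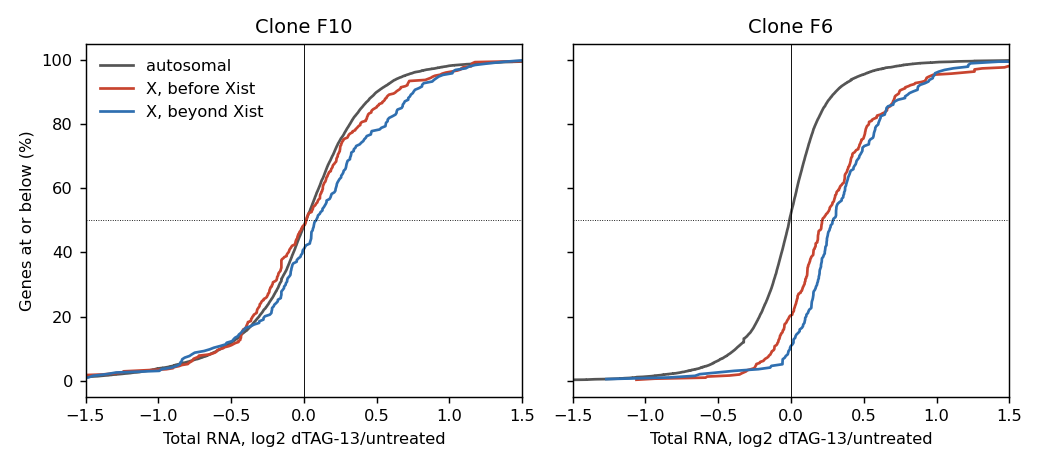
Cumulative percentage of genes (vertical axis) by log2 of dTAG-13 over untreated total RNA (horizontal axis) in clone F10 (left) and F6 (right), for genes with a mean of at least 1 CPM. Autosomal genes are grey, X-linked genes before Xist red and those beyond it blue. In F6 both X curves lie to the right of the autosomal one, and in F10 they lie near it.

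Of 556 X-linked genes tested, 40 rose (7.19%) and 1 fell (0.18%), while 66 of 14601 autosomal genes (0.452%) rose and 96 (0.657%) fell. These calls rest on the clone block and on the spread shared with the other treated and untreated pairs. Without the block, with the block in the 4 libraries alone, or without the block over all 58 libraries, 0 genes passed in edgeR, with 625, 1361 and 432 genes of all tested under an unadjusted p of 0.05. DESeq2 with the block called 24 X-linked genes higher and 2 lower, and 32 autosomal genes higher and 120 lower. Without F10, 13 X-linked genes passed as higher, 4 autosomal genes as higher and 1 as lower. Without F6 the autosomal counts were 942 and 1110. Of the genes named below for total RNA as passing, only Xlr3a and Sh3bgrl passed without F10. The autosomal calls therefore rest mostly on F10. Of the autosomal genes called, 136 had the larger change in F10, where the fibroblast marker sum went from 79.5 to 139 CPM and the mesoderm and endoderm sum from 61.9 to 45.6 CPM. Their part in the result was not tested.

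Among the X-linked genes, 24 of the 40 lie before Xist and 16 beyond it, and all 40 were higher in both clones. Of the 40, 21 have a deposited ratio, and 19 of these also rose in ratio. Sh3bgrl, a small SH3-binding protein gene beyond Xist (X:109095406-109162467), had 66.9 and 114 CPM in F10 and 64.0 and 121 CPM in F6. Its treated libraries lay well above the untreated ones (0.83 ± 0.08 SE on the log2 scale, adjusted p = 0.00557), and it passed without F10 too. Xlr3a had 3.11 and 6.69 CPM in F10 and 9.61 and 27.1 CPM in F6 (1.34 ± 0.16 SE, adjusted p = 0.00722). It belongs to a family of near-identical X-linked copies among which reads can be split, so its level is uncertain. Mospd1 and Zmat1 were also among the largest rises (0.94 ± 0.14 and 0.87 ± 0.17 SE). The 1 gene that fell was Pdzd4, with 99.0 and 60.1 CPM in F10 and 298 and 251 CPM in F6 (adjusted p = 0.0475). The Pdzd4 groups did not separate by treatment, because the clones differed more.

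The autosomal genes that rose the most were Mef2c, Mx2, Tdrkh, 2610203C20Rik, Me3, Cdh11, Pknox2, Greb1l, Plxna2 and Mn1. Mef2c, a transcription factor gene of muscle and nerve, had 9.68 and 43.6 CPM in F10 but 0.565 and 0.828 CPM in F6 (2.00 ± 0.29 SE, adjusted p = 0.0125). Greb1l, which encodes a nuclear receptor cofactor, had 97.2 and 239 CPM in F10 and 27.1 and 42.5 CPM in F6 (adjusted p = 0.0103). Both treated libraries were higher than their own untreated partner, but untreated F10 was above treated F6 for each of the 10 genes. The cadherin gene Cdh11 and the plexin gene Plxna2, a semaphorin receptor, had log2 changes of 1.56 and 1.44 in F10 and of 0.18 and 0.46 in F6. In PCGF35 the same comparison gave log2 fold changes under 0 for 9 of the 10, Mx2, an interferon-induced gene, being the exception.

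**Figure D5:**
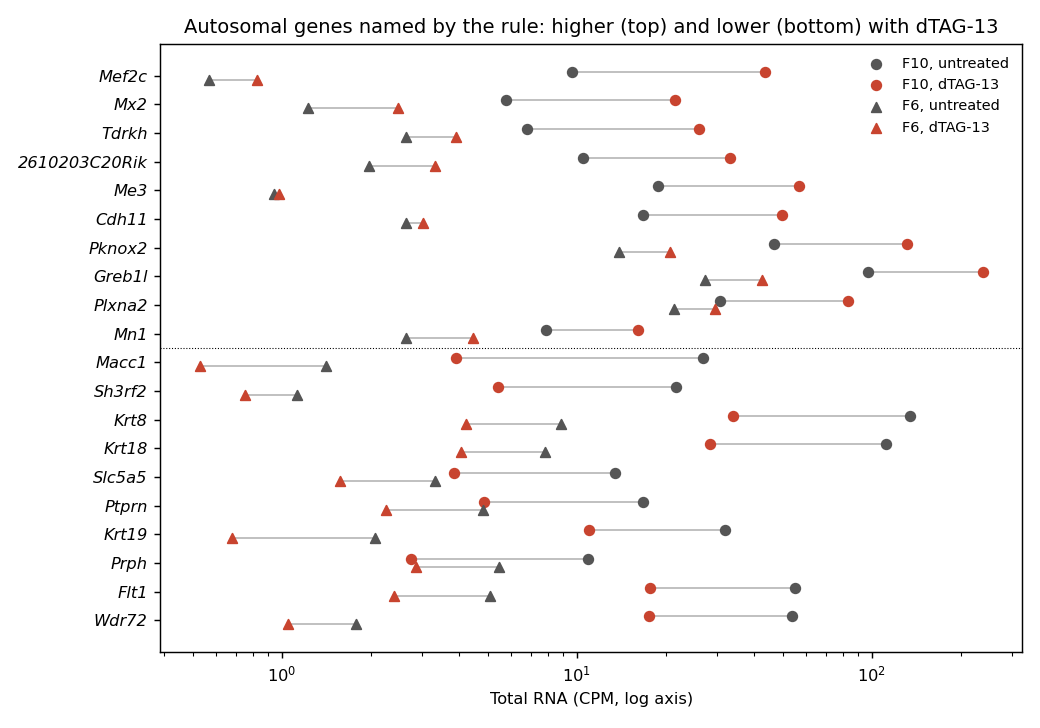
Total RNA in CPM (horizontal log axis) of the 10 autosomal genes with the largest rises (top) and the 10 with the largest falls (bottom) in each of the 4 libraries. Circles are clone F10 and triangles F6, grey untreated and red with dTAG-13, and lines join the pair of a clone. Untreated F10 lies above untreated F6 for each gene, and the line of F10 is the longer one for each gene except Krt19.

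The largest falls were of Macc1, Sh3rf2, Krt8, Krt18, Slc5a5, Ptprn, Krt19, Prph, Flt1 and Wdr72. Of these, Krt8, Krt18 and Krt19 are keratin genes of simple epithelia. Krt8 had 135 and 34.0 CPM in F10 and 8.86 and 4.21 CPM in F6 (-1.75 ± 0.26 SE, adjusted p = 0.0288). Krt18, its partner in the filament, had 112 and 28.3 CPM in F10 and 7.82 and 4.06 CPM in F6 (-1.71 ± 0.23 SE, adjusted p = 0.0151). Krt19 had 31.8 and 11 CPM in F10 and 2.07 and 0.677 CPM in F6 (-1.56 ± 0.18 SE, adjusted p = 0.00722). Each keratin was thus lower with dTAG-13 in both clones and far lower in F6 than in F10. Macc1, a gene linked to cell migration, had 26.9 and 3.89 CPM in F10 and 1.41 and 0.527 CPM in F6 (-2.60 ± 0.32 SE, adjusted p = 0.00934). Flt1, a receptor gene for vascular growth factors, had 55 and 17.7 CPM in F10 and 5.09 and 2.41 CPM in F6 (adjusted p = 0.0125). In PCGF35 the log2 fold change was under 0 for all 10 and passed the test for 9. Over all 96 autosomal genes that fell, it was under 0 for 67, where 7194 of all 14601 autosomal genes tested were. For the 66 that rose it was above 0 for 34.

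Pathways chosen for this system moved little in total RNA, where 0.699% of all 15158 genes tested rose and 0.64% fell, the median over all genes being -0.00. Of 28 PRC1 subunit genes tested and 11 PRC2 subunit genes tested, 0 passed, with median log2 changes of -0.01 and 0.00. The most abundant, the PRC1 gene Auts2, had 1480 and 2070 CPM in F10 and 1174 and 1243 CPM in F6 (adjusted p = 0.143). Hox genes, which Polycomb keeps silent in mESCs, were near 0, with only 2 of 39 high enough to test a median of -0.25, and the whole list summing to 1.95 to 4.81 CPM per library. Of 18 bivalent lineage factor genes tested 0 passed, with a median of -0.24. Gata4 was the highest of them, at 28.8 and 21.6 CPM in F10 and 6.13 and 7.45 CPM in F6. Of 18 germline genes (median 0.17) 1 rose, Tdrkh, a piRNA pathway gene, with 6.77 and 25.9 CPM in F10 and 2.64 and 3.91 CPM in F6 (1.51 ± 0.28 SE, adjusted p = 0.0299).

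Of 12 Xist partner genes and 8 genes of the X inactivation centre tested, 0 passed, with medians of 0.02 and -0.01. Tsix, the antisense partner of Xist, had 90.9 and 62.5 CPM in F10 and 194 and 184 CPM in F6 (adjusted p = 0.142). Of 23 X-linked chromatin regulator genes (median 0.06) 2 rose, Phf6 and Med12 (0.43 ± 0.08 and 0.49 ± 0.10 SE, adjusted p = 0.0280 and 0.0474). Of all 556 X-linked genes tested 7.19% rose, with a median of 0.17, so 2 of 23 is near the share of the X. Med12, a Mediator subunit gene, had 52.4 and 86.1 CPM in F10 and 58.5 and 70.2 CPM in F6. Of 13 X-linked regulators of pluripotency and MAPK signalling and of 11 escape genes, which stay active on the silenced X, 0 passed, with medians of -0.13 and -0.07.

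Of 15 naive pluripotency genes and 15 core and formative pluripotency genes tested, 0 passed, with medians of -0.06 and -0.26. Esrrb, the most abundant naive gene, had 200 and 191 CPM in F10 and 511 and 495 CPM in F6, so clones were apart and treatments were not. Of 13 neural progenitor genes tested (median 0.10) 1 passed, Tubb3, a neuronal tubulin gene, which fell (9.34 and 5.77 CPM in F10, 10.2 and 5.64 CPM in F6, -0.77 ± 0.17 SE, adjusted p = 0.0475). Of 11 mesoderm, endoderm and trophoblast genes tested (median -0.34) 2 fell, Krt8 and Krt18. Of 12 feeder fibroblast genes tested 0 passed, with a median of 0.42. Col1a2, a fibrillar collagen gene, had 56.2 and 106 CPM in F10 and 2.45 and 3.08 CPM in F6 (adjusted p = 0.0726).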

How the data were processed

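Chromatin RNA was sequenced from the libraries described above. The counts were made by the authors: ribosomal reads were removed with Bowtie2 2.3.2, the rest aligned with STAR 2.4.2a to mm10 with variant positions masked, fragments split by allele, and fragments per gene counted by strand with featureCounts. The deposited table of allelic ratios holds fractions from 0 to 1, and here it served to choose the 246 X-linked genes, whose ratios were recomputed from the counts.

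With edgeR 4.0.16 (R 4.3.3), quasi-likelihood models were fitted to 16 NPC libraries of PCGF35_SPOC and PCGF35 (days 3 and 6), with a treatment effect per line and day and a block per pair of treated and untreated libraries, TMM scaling and Benjamini-Hochberg adjustment. The treated and untreated cultures of a pair are the same clone in PCGF35_SPOC and share a replicate number in PCGF35. In the 4 libraries the deviations of the clones from their group means were correlated across genes in treated and untreated cells (r = 0.795). For PCGF35_SPOC on day 3 r was 0.726. In PCGF35 r was lower, at 0.228 on day 3 and 0.370 on day 6. Ratios were tested as the interaction of allele and treatment, for genes with a mean of at least 20 allelic fragments and a mean share of 0.1 to 0.9. P-values and SE rest on the spread between pairs of all 16 libraries, of which the comparison described has 2 pairs. That spread is pooled over both lines and both days and shared in part across genes. It therefore does not measure the spread between clones F10 and F6. For Pls3 the change in log2 odds was 1.23 without F10 and 2.66 without F6, beside an SE of 0.21 in the main fit. DESeq2 1.42.0 and limma 3.58.1 gave alternatives. CPM values are a gene's fragments divided by all fragments of the library and scaled to a common total. The fits were tested on simulated data with changes of the same size in both clones. The simulation therefore does not cover treatment effects that differ between clones.

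The genes, lists and tests were chosen with earlier results of these data known. The genes named are Xist, Spen, Pcgf3 and Pcgf5; the 12 largest rises in ratio among genes that passed in the same direction in both clones with a mean of at least 50 allelic fragments; the 6 differences nearest 0 among genes with at least 200; up to 10 autosomal and 5 X-linked genes per direction with the largest change in total RNA and at least 5 CPM; list members that passed or had the highest levels; and any count of 5 or fewer. Some genes that the rule names are not reported here. Eda, Heph, Ddx3x and the 9 genes lower in Cast RNA were named after their values were seen. Depth limits low genes, and 24 of the 246 were too low to test.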

Additional observations from a re-analysis of the deposited data

Results flagged for a closer look

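On the scale of log2 odds, 23 of the 222 X-linked genes had a smaller effect of dTAG-13 in PCGF35_SPOC than in PCGF35, a difference tested as an interaction. The same interaction was passed by 64 of 11224 autosomal genes. Untreated ratios differed between the lines, so a dependence on SPOC and the room left for a rise cannot be told apart.

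The sum of Cast RNA over the 246 genes changed by -34.4% in F10 and by 0.0972% in F6, so that the clones differed in an allele that carries no induced Xist. With 1 pair of libraries per clone this difference was not tested. Loss of the Cast X from part of the cells was not tested either.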

How the results depend on the processing

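The direction of the difference in median ratio (0.174) held under each alternative tried, at 0.159 to 0.168 with other gene filters or pooled fragments and 0.0979 to 0.251 with 1 clone left out. That of treated day 6 against day 0 (0.0209) did not, at -0.0226 without F10 and 0.0643 without F6. X against autosomes was 0.0481 to 0.277 with 1 clone left out. The difference between the classes by SPOC dependence was 0.0906 and 0.0733 with limits of 65% and 85%.

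Without the replicate block, the count of X-linked genes with a higher ratio was 47 instead of 94, with the block in the 4 libraries alone 57, and with DESeq2 and the block 50. Autosomal genes with a changed ratio were 37, against 3, 18 and 0 in the same order, and 1 without the block over all libraries in edgeR and 3 in limma. With 1 clone left out these counts were 42 to 139 on the X and 12 to 111 on autosomes, and with 1 library left out and no block 22, 23, 62 and 76 on the X and 1 to 41 on autosomes. Dom RNA was higher for 13 genes and Cast RNA lower for 0 without the block, and for 40 to 96 and 0 to 86 genes with 1 clone left out, where Dom RNA was lower for 0 to 2. The interaction gave 0 X-linked and 0 autosomal genes without the block, and 14 to 70 smaller, 0 to 1 larger and 27 to 129 autosomal with 1 clone left out.

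For total RNA, edgeR without the block, with the block in the 4 libraries alone and without it over all libraries gave 0 X-linked and 0 autosomal genes in either direction. DESeq2 with the block gave 24 X-linked genes higher and 2 lower, and 32 autosomal genes higher. DESeq2 size factors gave 0 X-linked genes lower. Without a filter the counts were 73 and 4 on the X and 220 and 243 on autosomes. With 1 clone left out they were 13 to 67 and 0 to 52 on the X and 4 to 942 and 1 to 1110 on autosomes, and with 1 library left out and no block 0 to 0 on the X, 0 to 2 autosomal genes higher and 0 to 11 lower. Leaving out chromosome 16, chosen after seeing the data, gave 95 X-linked genes with a higher ratio and 45 with higher total RNA.

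Among named genes, the change in log2 odds turned without F10 to -0.00075 for Dkc1, -0.0028 for Rbm3 and -0.044 for Usp9x, and was 0.70, 0.75 and 0.83 without F6. For total RNA, leaving out 1 library without the block sets unlike numbers of the clones against each other, and signs of log2 changes then turned. Without untreated F10 they became 0.63 for Macc1, 1.43 for Sh3rf2, 1.08 for Krt8, 1.02 for Krt18, 1.47 for Krt19, 0.96 for Flt1, 2.35 for Wdr72 and 0.081 for Pcgf3. Without treated F10 they became -2.63 for Mef2c, -0.51 for Mx2, -0.27 for Tdrkh, -0.92 for 2610203C20Rik, -3.32 for Me3, -1.68 for Cdh11, -0.53 for Pknox2 and for Greb1l, -0.24 for Mn1, 0.35 for Pdzd4, -0.18 for Xist, 0.45 for Spen and -0.75 for Pcgf5. Without untreated F6 they became 0.66 for Pdzd4, 0.64 for Spen and -0.31 for Pcgf5, and without treated F6 0.077 for Pcgf3. The remaining genes among those run under these alternatives (the engineered genes, the genes named by size of change and the list members that passed) kept their sign. The other genes described were not run.

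The cause of these shifts was not tested. Clone F10 carries most of the calls, 2 clones bound the precision, and few allelic fragments limit the low genes.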

Other observations

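Genes of stress pathways were compared between treated and untreated libraries. Of 14 genes of the ATF4 pathway, which answers amino acid shortage and unfolded proteins, 0 passed the test (edgeR quasi-likelihood, adjusted p), 5 were lower and 0 higher at an unadjusted p under 0.05 (1479 and 1440 of all 15158 genes tested), and the median log2 change was -0.21, beside -0.00 over all genes. Sesn2, a stress-induced inhibitor of growth signalling, had 89.4 and 68.7 CPM in F10 (untreated, treated) and 79.6 and 54.3 CPM in F6 (adjusted p = 0.0717). Of 12 p53 target genes 0 passed, with a median of -0.13. Mdm2, which encodes the ubiquitin ligase of p53, had 312 and 271 CPM in F10 and 181 and 165 CPM in F6.

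Of 15 genes that report ERK signalling 0 passed, with medians of -0.51 in F10 and -0.14 in F6. Etv5, an ETS factor gene induced by this pathway, had 128 and 51.4 CPM in F10 and 198 and 200.5 CPM in F6, lower in one clone only, and the difference between the clones was not tested.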
